A study of Homo sapiens with 4 samples.

Results

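The 48 genes described here are well counted long non-coding RNAs (lncRNAs) of MDA-MB-231 cells. They are annotated as lncRNA in the deposited table and had at least 50 read counts summed over both input libraries. Well known nuclear, small structured and snoRNA-hosting lncRNAs were left out by name. These were MALAT1, NEAT1, RNU11, GAS5, ZFAS1, EPB41L4A-AS1, RMRP, RPPH1 and all symbols that start with SNHG, RN7SL or RNU. The clone-named RP11-596C23.6 and RP11-160E2.6 were also left out by name. The members are 48 of the 3086 lncRNA genes and of the 18276 genes in all. Input counts therefore chose the members, and RP11-596C23.6 and RP11-160E2.6 were left out after their recovery in these data was known, so the number of members that differ between IP and input is a description and was not tested as a property of the set.

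The study recovered RNA with an antibody against SF3B6 (IP, 2 libraries) and sequenced it beside input RNA (2 libraries), to ask which transcripts SF3B6 contacts. MDA-MB-231 is a human triple-negative breast cancer line. Cells of all 4 libraries were irradiated with 400 mJ/cm2 of ultraviolet light to link protein to RNA, and the lysate was digested with micrococcal nuclease before 5 ug of antibody was added to the IP samples. Input is the reference here, so RNA that sticks to beads or antibody is not separated from RNA bound to SF3B6. The design calls the libraries of each pair biological replicates. An IgG antibody is named in the protocols, and IgG libraries and the knockdown RNA-seq that the design mentions are not analysed here. The titles give MDA-MB-231 for every library, while the cell line entries differ in their last digit.

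SF3B6 IP 1 held 55492 gene counts and SF3B6 IP 2 held 30431, against 317190 for input 1 and 519836 for input 2. The cell line's mesenchymal markers summed to 3136 and 2826 CPM (here scaled by all gene counts, without TMM) in the IP libraries, against 4672 and 5269 CPM in the inputs, with 8 of 8 listed in the table. AXL held the most summed input counts of these, 2408, while ZEB1 had 16 and SPARC 2. Of 8 luminal markers 5 were listed, which summed to 721 and 789 CPM in IP, against 1088 and 1141 CPM in the inputs. Their summed input counts were 424 (KRT8), 268 (KRT18), 223 (ERBB2), 19 (GATA3) and 4 (CDH1). Of 6 blood cell markers 2 were listed, with 0 and 1 summed input counts.

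LncRNAs are transcripts that are not known to encode a long protein. Most are spliced like messengers, and they act as scaffolds, as hosts of small RNAs cut from their introns or exons, or through transcription across a locus. SF3B6, also called p14, belongs to the SF3b complex of the U2 small nuclear ribonucleoprotein and contacts the branch point adenosine of introns during splicing.

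Of the 48 lncRNAs, 47 had enough counts to be tested against input, and AC005540.3 (1 and 1 counts in IP, 15 and 44 in input) did not. In IP 2 were higher, CH507-513H4.5 and RP11-197N18.2, and 0 were lower (edgeR quasi-likelihood test, adjusted p under 0.05). Over all 3668 tested genes the same test called 2.70% higher and 1.36% lower, or 4.06% in either direction. At an unadjusted p under 0.05, 5 members were higher and 1, KCNQ1OT1, was lower, against 7.93% and 7.72% of all tested genes. DESeq2 called 0 in either direction, with no adjusted p for 17 of the 47. The median log2 fold change of the 47 was -0.17, against -0.06 over all tested genes, and their values ran from -2.21 to 1.36. The 45 members that did not pass had SE from 0.23 to 1.13 on the log2 scale. In 10 of the 47 both IP libraries lay above both inputs, and in 15 both lay below (21.3% and 31.9%). Over all tested genes, which include genes of fewer input counts, these shares were 20.9% and 28.5%. Among tested protein-coding genes of at least 50 input counts they were 15.9% and 33.3%.

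**Figure D1:**
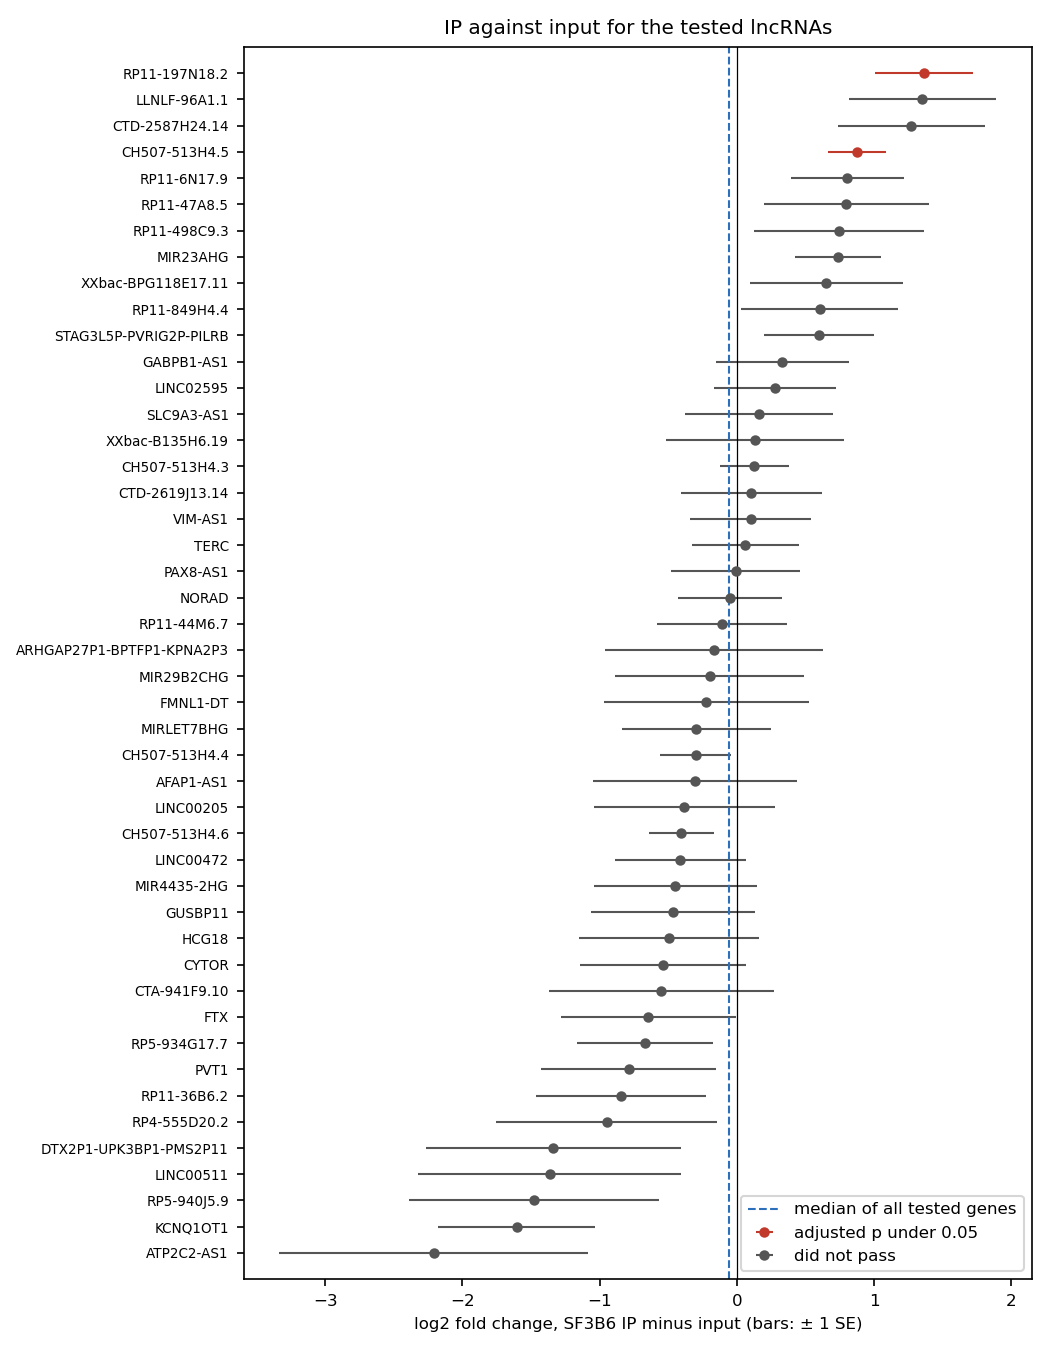
Log2 fold change of SF3B6 IP minus input for the tested lncRNAs, with 1 not shown, and bars of 1 SE from the edgeR fit. The red points are RP11-197N18.2 at 1.36 and CH507-513H4.5 at 0.88, which passed at an adjusted p under 0.05, and the dashed line is the median of all tested genes at -0.06.

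Depth limits these values. Outside the CH507-513H4 genes, a member had from 1 to 30 counts over both IP libraries, with a median of 7, and from 50 to 203 over both inputs, with a median of 90. Fewer than 10 IP counts were found for 29 of the 48 members. SF3B6 IP 2 held no count for 6 members and SF3B6 IP 1 none for 1, where a count of 0 allows up to 130.7 and 66.1 CPM on the scale of the members' levels (counts of tested genes and TMM factors). Reads carry no molecular identifiers, so intervals and such limits cover counting error only. No absolute scale links IP to input, so each fold change compares a gene with the other genes of its library.

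**Figure D2:**
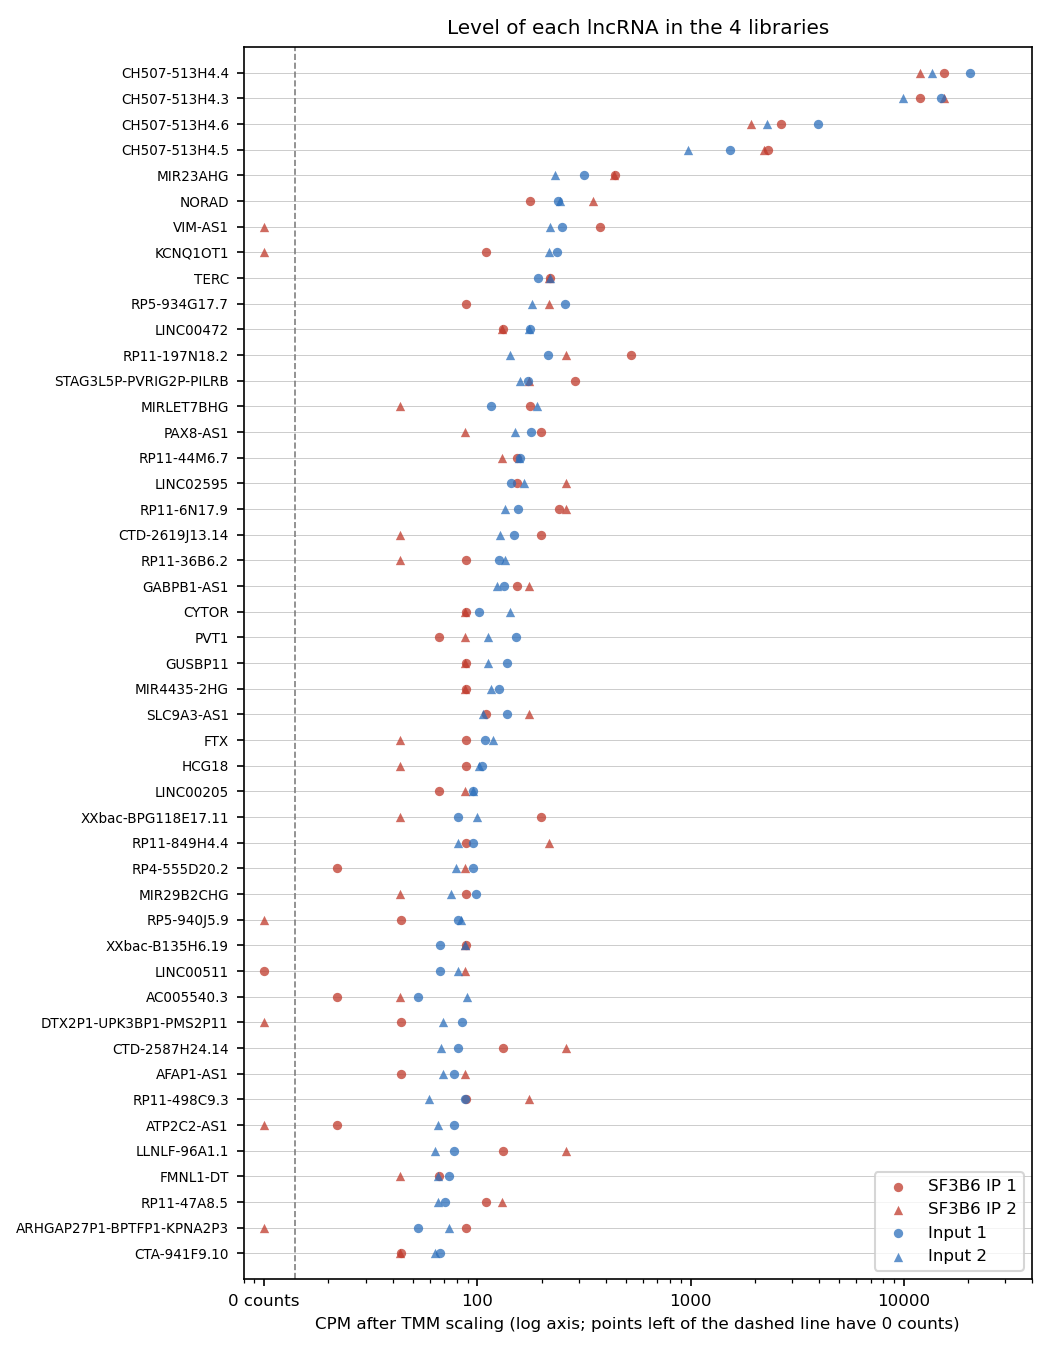
Level of the lncRNAs in the 4 libraries, with 1 not shown, in CPM after TMM scaling on a log axis, with libraries without a count drawn left of the dashed line. Outside the CH507-513H4 genes at the top, the 2 inputs (blue) lie close together while the 2 IP libraries (red) scatter widely, with 0 counts in SF3B6 IP 2 for 6 genes.

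CH507-513H4.3, CH507-513H4.4, CH507-513H4.5 and CH507-513H4.6 made up most of the counts of the set. These 4 genes on chromosome 21 share a clone name, carry no description in the table and have no entry in the RefSeq gene table. Counts and FPKM values imply the same exonic length of 0.923 kb for all 4. They may thus be near-identical copies, with reads split among them in a way that is not known. On the same chromosome, the ribosomal RNA genes RNA5-8SN1, RNA5-8SN2 and RNA5-8SN3 had log2 fold changes of 0.06, 0.38 and -0.33, and none passed. MIR3648-1 and MIR3648-2, also on chromosome 21, were higher in IP, at 3.18 and 4.07 (edgeR adjusted p = 8.894e-13 and 7.715e-15). Whether reads of the 4 CH507-513H4 genes stem from ribosomal RNA precursors was not tested. CH507-513H4.4 had 705 and 274 counts in IP, against 5822 and 6628 in input. CH507-513H4.3 had 543 and 353 in IP, against 4255 and 4883 in input. CH507-513H4.6 had 121 and 44 in IP, against 1126 and 1127 in input, and the IP and input CPM of these 3 genes overlapped. Their log2 fold changes were -0.30 ± 0.26, 0.13 ± 0.25 and -0.40 ± 0.23 (SE), and none passed (edgeR adjusted p = 0.620, 0.884 and 0.400). Without SF3B6 IP 1, CH507-513H4.6 was called lower, at -0.91 (edgeR adjusted p = 0.0290). With no filter, CH507-513H4.4 was called lower at -0.78 (2.622e-06) and CH507-513H4.6 at -0.87 (1.832e-04), and both were called lower with the settings that use FPKM.

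CH507-513H4.5 was 1.84-fold higher in IP. It had 105 and 51 counts in IP, against 435 and 478 in input, a mean of 2267 CPM in IP (SD 63.4, n = 2) against 1252 CPM in input (SD 393, n = 2). Both IP libraries lay above both inputs. Its log2 fold change was 0.88 ± 0.21 SE (edgeR adjusted p = 0.0105). It also passed with DESeq2 size factors in edgeR (0.00177), a filter of 50 counts in 2 libraries (0.00113) and a replicate block (0.0456). It did not pass with DESeq2 (0.300), upper quartile scaling (0.0671), library totals (0.114) or no filter (0.538). Without SF3B6 IP 1 or 2 it was at 0.63 and 0.81, and without input 1 or 2 at 1.27 and 0.61. Such fits leave 1 library in a group and do not show whether the call holds. With library totals recovered from the FPKM table, which put the median of all tested genes at -1.65, it was at -0.70 (0.137), and limma on log2(FPKM + 1) gave -0.72 (0.121).

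The division of counts among these 4 genes needs no scaling between libraries, and was looked at after the values were known. CH507-513H4.5 held 7.12% and 7.06% of their counts in SF3B6 IP 1 and 2 (95% Wilson intervals 5.92% to 8.55% and 5.41% to 9.17%), against 3.74% and 3.64% in input 1 and 2 (3.41% to 4.10% and 3.34% to 3.98%). The mean share was 7.09% ± 0.0417 in IP and 3.69% ± 0.0665 in input (SD, n = 2 each), a ratio of 1.92, with p = 0.333 in a two-sided exact permutation test, the smallest that 2 against 2 libraries allow. Both IP shares of CH507-513H4.4 and CH507-513H4.6 lay below both input shares, and the shares of CH507-513H4.3 overlapped. The SF3B6 IP 1 intervals of CH507-513H4.4 (45.3% to 50.4%) and CH507-513H4.6 (6.91% to 9.72%) overlapped those of both inputs. The 4 shares are parts of one whole, so a higher share of CH507-513H4.5 goes with a lower sum of the others. CH507-513H4.6 held 8.21% in SF3B6 IP 1 and 6.09% in SF3B6 IP 2, against 9.68% and 8.59% in the inputs. CH507-513H4.3 held 36.8% in SF3B6 IP 1 and 48.9% in SF3B6 IP 2, against 36.6% and 37.2% in the inputs. CH507-513H4.4 held 47.8% in SF3B6 IP 1 and 38.0% in SF3B6 IP 2, against 50.0% and 50.5% in the inputs. The IP libraries differed from each other in CH507-513H4.3 and CH507-513H4.4, with intervals that did not overlap.

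**Figure D3:**
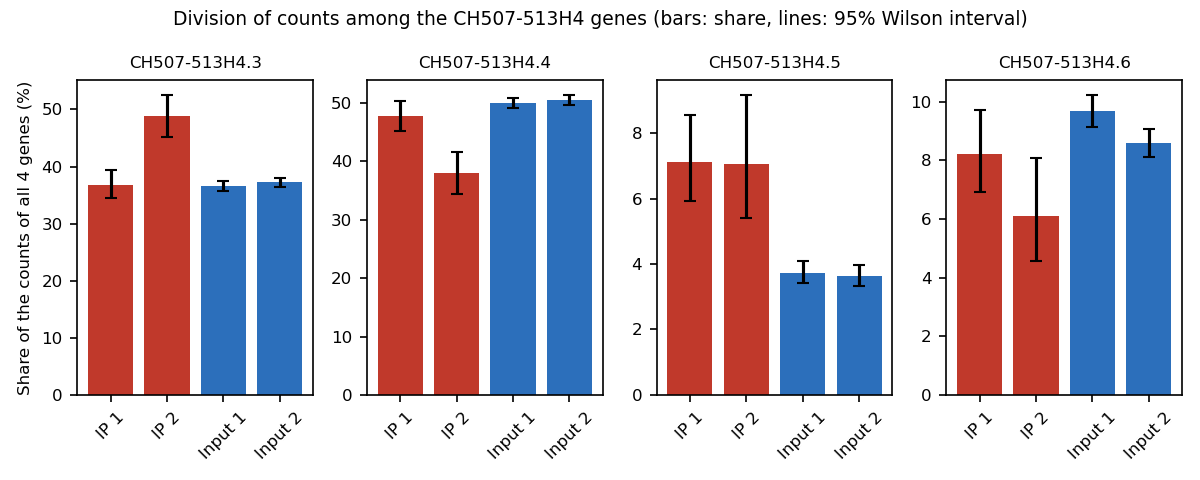
Share of the summed counts of the 4 CH507-513H4 genes that each gene held in each library, with 95% Wilson intervals and a separate vertical axis for each gene. CH507-513H4.5 stood at 7.12% and 7.06% in IP against 3.74% and 3.64% in input, while for CH507-513H4.3 SF3B6 IP 2 (48.9%) stood apart from SF3B6 IP 1 (36.8%).

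As a share of all gene counts, the 48 lncRNAs made up 3.13% and 2.77% in SF3B6 IP 1 and 2, against 4.18% and 3.02% in input 1 and 2. Without the 4 CH507-513H4 genes, the remaining 44 made up 0.472% and 0.398% in IP, against 0.506% and 0.500% in input. The 95% Wilson intervals of these were 0.418% to 0.533% and 0.333% to 0.475% in IP, against 0.482% to 0.532% and 0.481% to 0.519% in input. The interval of SF3B6 IP 1 covers both inputs, while that of SF3B6 IP 2 lies below them. The members were chosen on input counts, which favours higher input shares, so this is a description and tests no difference.

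The 4 members listed as nuclear lncRNAs had negative fold changes, and none passed. They are KCNQ1OT1, FTX, PVT1 and LINC00511, from a list of 20 of which 14 were in the table. KCNQ1OT1 is the long imprinted transcript that silences neighbouring genes in cis (chromosome 11, 2608328 to 2699994). It had 5 and 0 counts in IP, against 67 and 106 in input, and both IP libraries lay below both inputs. Its log2 fold change of -1.61 ± 0.57 SE had the smallest p of all lower members (edgeR adjusted p = 0.122). With no filter it was called lower, at -2.08 (0.0335), as were all 4 of these genes with the settings that use FPKM, where the median of all tested genes was itself at -1.65 and -1.05. The pooled ratio of IP to input was 0.328, with an exact 95% interval from 0.105 to 0.779.

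FTX, transcribed in the X inactivation centre (chromosome X, 74028136 to 74293574), had 4 and 1 counts in IP, against 31 and 58 in input (log2 fold change -0.65 ± 0.64 SE, edgeR adjusted p = 0.691). PVT1, the neighbour of the MYC oncogene (chromosome 8, 127794524 to 128101256), had 3 and 2 in IP, against 43 and 55 in input (-0.79 ± 0.64, adjusted p = 0.597). In both genes the 2 IP libraries lay below the inputs, by less than the fit's error allows to call. LINC00511, reported to be raised in breast tumours (chromosome 17, 72598041 to 72640472), had 0 and 2 counts in IP, against 19 and 40 in input, a ratio of 0.384 with an interval from 0.0455 to 1.45. Pooled over these 4 genes, IP held 17 and input 419 counts, a ratio of 0.460 with a counting interval from 0.265 to 0.745, which leaves out the spread between libraries. Other nuclear lncRNAs were not uniform. TUG1, listed but not a member, had 3 and 4 counts in IP, against 18 and 18 in input. LINC-PINT, also listed and not a member, had 1 and 0, against 18 and 31. The better counted MALAT1 and NEAT1, left out by name, had pooled ratios of 1.023 and 1.019.

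Of the 12 names listed as cytoplasmic lncRNAs 6 were in the table, of which NORAD, CYTOR and MIR4435-2HG are members. NORAD, which binds PUMILIO proteins in the cytoplasm (chromosome 20, 36045618 to 36050960), had 8 and 8 counts in IP, against 68 and 120 in input. This came to 262 ± 122 CPM in IP and 242 ± 3.79 CPM in input (SD, n = 2 each), with a log2 fold change of -0.05 ± 0.38 SE (edgeR adjusted p = 0.975). The mean CPM and the fitted fold change of NORAD thus differ in sign, and the fold change was 0.032 with DESeq2 and 0.15 with a filter of 50 counts in 2 libraries. CYTOR, named as a regulator of the cytoskeleton (chromosome 2, 87455427 to 87521518), had 4 and 2 counts in IP, against 29 and 70 in input. MIR4435-2HG, a close copy of CYTOR elsewhere on chromosome 2 (111195866 to 111495161), had 4 and 2 in IP, against 36 and 57 in input, and reads of the pair may have been shared. Their log2 fold changes were -0.54 ± 0.60 and -0.45 ± 0.59 SE (adjusted p = 0.752 and 0.809). Among 19 lncRNAs listed for breast cancer, 9 were in the table, and the members are PVT1, LINC00511, CYTOR and NORAD, of which 0 passed in either direction.

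TERC, the template RNA of telomerase (chromosome 3, 169764610 to 169765060), was level between IP and input within its error. It had 10 and 5 counts in IP, against 55 and 108 in input, or 219 ± 1.64 CPM in IP and 207 ± 18.8 CPM in input (SD, n = 2 each). Its log2 fold change was 0.06 ± 0.39 SE (edgeR adjusted p = 0.971), and its sign turned with upper quartile scaling, library totals, no filter, both settings that use FPKM, and without either IP library. Per length, TERC stood at 24.4 and 18.4 FPKM in IP, against 47.9 and 78.4 FPKM in input, while KCNQ1OT1, with a similar number of input counts, stood at 0.07 and 0.00 FPKM in IP, against 0.34 and 0.45 FPKM in input. LINC00472, described as lowered in breast tumours (chromosome 6, 71407864 to 71420745), had 6 and 3 counts in IP, against 50 and 86 in input (log2 fold change -0.41 ± 0.48 SE, edgeR adjusted p = 0.763). Both IP libraries of LINC00472 lay below both inputs.

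**Figure D4:**
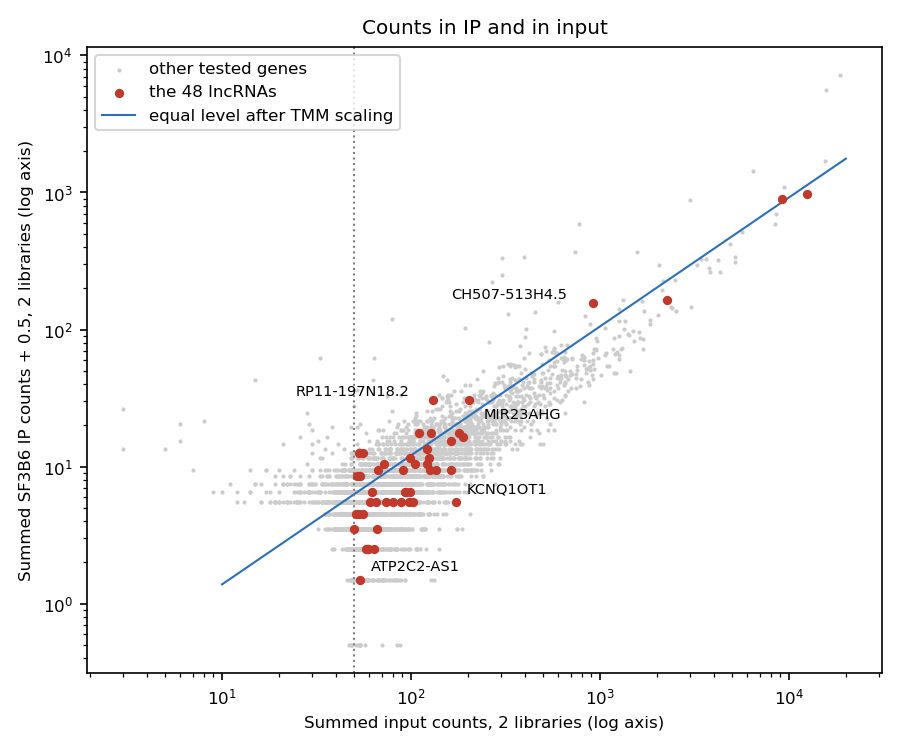
Summed counts of both SF3B6 IP libraries plus 0.5 against summed counts of both inputs, on log axes, for the 48 lncRNAs (red) and all other tested genes (grey). Most red points scatter around the line of equal level, with CH507-513H4.5 (156 IP, 913 input counts) and RP11-197N18.2 (30, 131) above it and KCNQ1OT1 (5, 173) below it, and the dotted line marks the minimum of 50 input counts.

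Some members host microRNAs. By RefSeq positions and strands, 6 members hold 15 microRNA hairpin genes on their own strand, and 1 of those hairpins, MIR3619, is itself listed in the count table. These are minimums, since a strand was given for 19 of the 48 members only. PVT1, with no strand given, overlaps MIR1204, MIR1205, MIR1206 and MIR1207, and ARHGAP27P1-BPTFP1-KPNA2P3, also without strand, overlaps MIR6080. MicroRNAs are cut from such host transcripts by the nuclear enzyme DROSHA, often before or while the host is spliced. The main mature forms carried by 3 of these hosts are shown, to make clear which microRNA families the host counts stand beside. MIR23AHG (chromosome 19, 13834516 to 13842918), MIRLET7BHG (chromosome 22, 46085997 to 46113928) and MIR29B2CHG (chromosome 1, 207801518 to 207822703) hold them. Sequences are from RefSeq (GRCh38.p14), written 5′ to 3′, with the seed, bases 2 to 8, in capitals.
hsa-miR-23a-3p: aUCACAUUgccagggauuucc
hsa-miR-27a-3p: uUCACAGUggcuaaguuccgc
hsa-miR-24-3p: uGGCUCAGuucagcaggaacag
hsa-let-7a-5p: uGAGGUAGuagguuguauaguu
hsa-let-7b-5p: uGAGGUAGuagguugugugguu
hsa-miR-29b-3p: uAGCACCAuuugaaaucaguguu
hsa-miR-29c-3p: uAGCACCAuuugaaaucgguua
The let-7a and let-7b forms of MIRLET7BHG share the seed GAGGUAG, and the miR-29b and miR-29c forms of MIR29B2CHG share AGCACCA. The 3 microRNAs of MIR23AHG have 3 different seeds.

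MIR23AHG had the most input counts of the members outside the CH507-513H4 genes. It had 20 and 10 counts in IP, against 90 and 113 in input, a mean of 438 CPM in IP (SD 3.28, n = 2) against 274 CPM in input (SD 61.0, n = 2). The exonic length implied by its counts and FPKM exceeds its RefSeq span, so the counted gene model was longer than that entry. Both IP libraries lay above both inputs, and its log2 fold change of 0.74 ± 0.31 SE did not pass (edgeR adjusted p = 0.223). MIRLET7BHG had 8 and 1 counts in IP, against 33 and 93 in input, with IP and input levels that overlapped (-0.30 ± 0.54, adjusted p = 0.880). MIR29B2CHG had 4 and 1 in IP, against 28 and 37 in input, also with overlap (-0.20 ± 0.69, adjusted p = 0.944). Over the 6 members that hold hairpins, FTX, MIR4435-2HG and STAG3L5P-PVRIG2P-PILRB being the others, IP held 72 and input 703 counts, a ratio of 1.16 with a counting interval from 0.898 to 1.48. Of the 22 names listed as microRNA hosts, 17 were in the table and 5 were members (MIR29B2CHG, MIRLET7BHG, MIR4435-2HG, FTX and PVT1), of which 0 passed and all 5 had negative values, with a median of -0.45. MIR23AHG was not on that list.

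Antisense-named members numbered 7, and none passed. Such genes are named for a protein-coding gene they lie beside or across, and without a stated strand setting their reads cannot be told apart from those of the partner where both overlap. VIM-AS1 (chromosome 10, 17214239 to 17229985) overlaps VIM, the gene of the intermediate filament protein vimentin, on the opposite strand over 1745 bases. VIM-AS1 had 17 and 0 counts in IP, against 71 and 108 in input, so that all its IP counts came from SF3B6 IP 1. This came to 187 ± 265 CPM in IP and 235 ± 21.0 CPM in input (SD, n = 2 each). Mean CPM of VIM-AS1 was thus lower in IP, while its fitted fold change was positive. VIM had 43 and 16 counts in IP, against 286 and 532 in input. The log2 fold changes were 0.10 ± 0.44 for VIM-AS1 and -0.29 ± 0.22 for VIM (SE, edgeR adjusted p = 0.960 and 0.563), and VIM-AS1 was negative with upper quartile scaling, library totals, no filter, DESeq2, a replicate block, both settings that use FPKM, and without SF3B6 IP 1 or input 2.

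ATP2C2-AS1 (chromosome 16, 84459259 to 84467361) had the lowest fold change of all tested members. It had 1 and 0 counts in IP, against 22 and 32 in input, a ratio of 0.210 with an exact interval from 0.00522 to 1.22 (edgeR adjusted p = 0.334). The interval includes an equal level. PAX8-AS1, GABPB1-AS1, SLC9A3-AS1 and AFAP1-AS1 had from 4 to 11 IP counts and did not pass. In all, 14 members overlap a protein-coding gene by RefSeq positions, 5 of them on the opposite strand and 7 with no strand given in the tables used here.

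Pseudogene and readthrough transcripts, which run across several neighbouring pseudogenes or genes, gave 4 members. STAG3L5P-PVRIG2P-PILRB (chromosome 7, 100336065 to 100367831) had 13 and 4 counts in IP, against 49 and 78 in input. Both IP libraries lay above both inputs, and its log2 fold change was 0.60 ± 0.40 SE (edgeR adjusted p = 0.494). DTX2P1-UPK3BP1-PMS2P11 (chromosome 7, 76980822 to 77023761) had 2 and 0 in IP, against 24 and 34 in input, a ratio of 0.391 with an interval from 0.0462 to 1.48. GUSBP11 and ARHGAP27P1-BPTFP1-KPNA2P3 had 6 and 4 IP counts and did not pass. Reads of these genes may be shared with the parent genes of the pseudogenes.

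Genes known by a clone name gave 17 further members and the second gene that passed. RP11-197N18.2, on chromosome 12, had 24 and 6 counts in IP, against 61 and 70 in input. It averaged 395 CPM in IP (SD 189, n = 2) against 179 CPM in input (SD 50.9, n = 2), and both IP libraries lay above both inputs. Its log2 fold change was 1.36 ± 0.36 SE (edgeR adjusted p = 0.0205). SF3B6 IP 1 held 24 of its 30 IP counts, and without that library it was at 0.41 (adjusted p = 0.895). RP11-197N18.2 also passed with DESeq2 size factors in edgeR (0.00744) and a filter of 50 counts in 2 libraries (0.00474). It did not pass with a replicate block (0.0702), upper quartile scaling (0.0654), library totals (0.0890), no filter (0.373) or DESeq2 (0.353). Without SF3B6 IP 2, input 1 or input 2 RP11-197N18.2 was at 1.54, 1.61 and 1.01, and with the FPKM totals at -0.30. Fits with 1 library in a group do not show whether the call holds.

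LLNLF-96A1.1 and CTD-2587H24.14, both on chromosome 19, were nearly as high but less well counted. LLNLF-96A1.1 had 6 and 6 counts in IP, against 22 and 31 in input (log2 fold change 1.35 ± 0.54 SE, edgeR adjusted p = 0.182). CTD-2587H24.14 had 6 and 6 in IP, against 23 and 33 in input (1.27 ± 0.53, adjusted p = 0.213). In both, all IP values lay above the inputs, with the shallower SF3B6 IP 2 the higher in CPM. RP11-6N17.9, on chromosome 17, had 11 and 6 counts in IP, against 44 and 66 in input (0.80 ± 0.41, adjusted p = 0.336). RP11-47A8.5, on chromosome 10, had 5 and 3 in IP, against 20 and 32 in input (0.80 ± 0.60, adjusted p = 0.560).

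Clone-named members were found at the low end as well. RP5-940J5.9, on chromosome 12, had 2 and 0 counts in IP, against 23 and 41 in input, a ratio of 0.354 with an interval from 0.0420 to 1.33. RP4-555D20.2, on chromosome 3, had 1 and 2 in IP, against 27 and 39 in input, a ratio of 0.515 (0.104 to 1.57). RP5-934G17.7, on chromosome 1, had 4 and 5 in IP, against 73 and 89 in input (log2 fold change -0.67 ± 0.50 SE, edgeR adjusted p = 0.548). The other clone-named members, RP11-44M6.7, RP11-36B6.2, CTD-2619J13.14, XXbac-BPG118E17.11, RP11-849H4.4, XXbac-B135H6.19, RP11-498C9.3 and CTA-941F9.10, did not pass, with log2 fold changes from -0.84 (RP11-36B6.2) to 0.74 (RP11-498C9.3). Of the 16 clone-named members tested, 10 had positive and 6 negative values, with a median of 0.37. Among lncRNAs with other names, LINC02595, HCG18, LINC00205 and FMNL1-DT did not pass either, at 0.28, -0.49, -0.38 and -0.22. Of the 11 such lncRNAs, 2 had positive and 9 negative values, with a median of -0.41. The difference between these kinds was not tested.

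Longer members tended to lower fold changes, in a description that rests on few counts per gene. Implied exonic lengths ran from 0.422 kb (RP5-940J5.9) to 92.7 kb (KCNQ1OT1). Outside the CH507-513H4 genes, 2 of the 16 members over 10 kb had positive and 14 negative log2 fold changes, with a median of -0.47, and the 22 members of 2 to 10 kb divided 11 to 11, with a median of 0.03. The 5 tested members under 2 kb had a median of 0.74. AC005540.3, also under 2 kb, had too few counts to be tested, with a pooled ratio of IP to input of 0.384. All 6 members under 2 kb together had a pooled ratio of 1.20. All tested genes gave medians of -0.22 over 10 kb, -0.04 at 2 to 10 kb and 0.33 under 2 kb. Spearman's rho between log2 fold change and implied length was -0.43 across these 43 members and -0.17 across all 3668 tested genes. The points share the same 4 libraries and are not independent replicates.

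**Figure D5:**
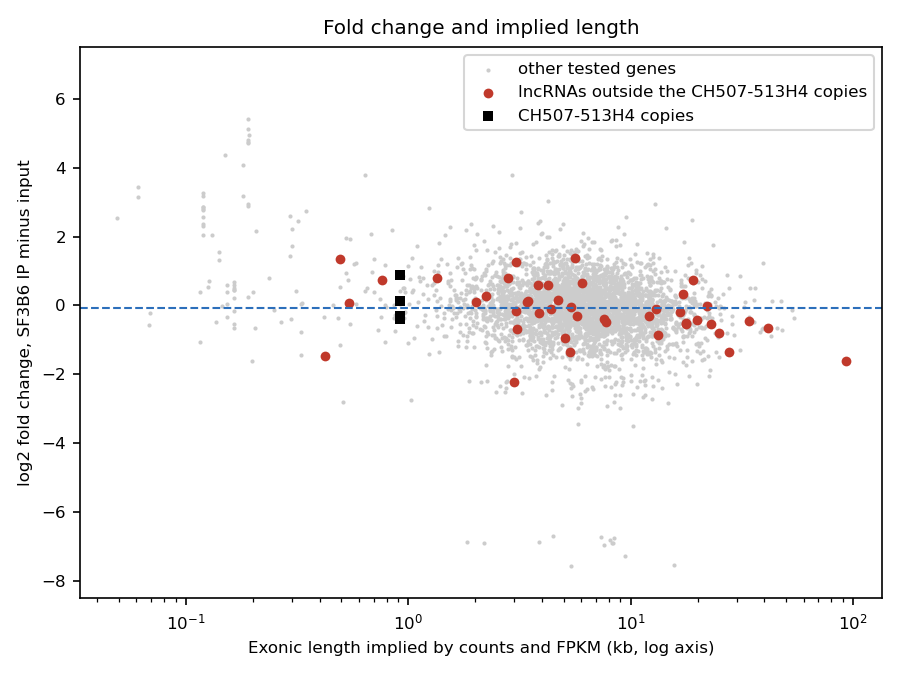
Log2 fold change of SF3B6 IP minus input against the exonic length implied by counts and FPKM, on a log axis, for the lncRNAs (red, with the CH507-513H4 genes as black squares) and all other tested genes (grey). Of the 16 red points over 10 kb, 14 lie below 0, and the dashed line is the median of all tested genes at -0.06.

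Replicate libraries differed in how well they agreed on these genes. Across the 44 members outside the CH507-513H4 genes, the inputs differed by no more than sampling noise (chi-square per degree of freedom 0.954 over 44 genes), with a Spearman correlation of 0.87. The IP libraries gave 2.15 over the 7 members with at least 5 expected counts in each, and a correlation of 0.45. The 4 CH507-513H4 genes raised these to 19.3 for the inputs and 4.63 for the IP libraries.

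The members were set beside genes chosen by the same minimum of input counts. Of 2956 protein-coding genes tested with at least 50 input counts, 44 were higher and 50 lower, with a median log2 fold change of -0.15, near the -0.17 of the lncRNAs. The 14 lncRNAs left out by name had a median of 0.02, with 4 higher and 0 lower. Among these 4 are RP11-596C23.6 and RP11-160E2.6, at 2.08 and 3.79, which were left out after their recovery was known. The rule thus made part of that difference from the members. Just inside the minimum were CTA-941F9.10, ARHGAP27P1-BPTFP1-KPNA2P3, RP11-47A8.5 and FMNL1-DT with 50, 51, 52 and 53 input counts and 3, 4, 8 and 4 IP counts. Just outside were ABALON, IGFBP7-AS1, LINC-PINT and RP1-230G1.7 with 49, 49, 49 and 48 input counts and 9, 7, 1 and 1 IP counts.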

How the data were processed

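RNA of 2 SF3B6 IP and 2 input libraries of MDA-MB-231 cells was compared. The data deposited by the authors are raw counts of reads for each gene and FPKM of the same genes, 1 column per library per the file headers. The submitters' processing notes name HISAT2, HOMER and hg38, with no role or version. The counting tool, its strand setting and its handling of reads with several matches were not given in the sources used here.

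Counts were tested over all genes with edgeR 4.0.16 (R 4.3.3), by the quasi-likelihood test with TMM factors (0.968 and 0.860 for SF3B6 IP 1 and 2, 1.06 and 1.13 for input 1 and 2), the default expression filter (3668 genes), group as the only term and Benjamini-Hochberg adjustment at 0.05. The script was tested on simulated data. The SE is the absolute log2 fold change over the square root of F. CPM of members are scaled by the counts of tested genes and TMM, and those of cell type markers by all gene counts alone. Pooled ratios have exact and shares Wilson 95% intervals, for counting error only. The library total behind the FPKM values of input 2 was recovered from snRNA, snoRNA, scaRNA and histone genes of at least 20 counts and their RefSeq lengths. Totals of the other libraries were scaled from it by median ratios of counts to FPKM over 114 genes of at least 20 counts in every library. The totals were 757740 and 501218 for SF3B6 IP 1 and 2, and 2121305 and 2546675 for input 1 and 2, far above the gene counts. Implied exonic length follows from input counts, FPKM and these totals. Of the members, 27 matched a RefSeq (GRCh38.p14) position, and for 4 the implied length was over 1.1 times the RefSeq span.

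One member is counted among the others and not reported here by itself. The members and gene lists were chosen with earlier results of these data known. Counts in every library are given for the 10 members with most input counts, the 6 highest and 6 lowest fold changes, those that passed and those in the lists. Deviations of same-numbered libraries correlated at 0.0004 over 3668 genes. Alternatives were DESeq2 1.42.0, limma 3.58.1 on log2(FPKM + 1), other scalings and filters, a replicate block, each library left out, and other membership rules.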

Additional observations from a re-analysis of the deposited data

How the results depend on the processing

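The count of 2 higher and 0 lower members depended on scaling, filter and tool. Their median of -0.17 (-0.06 over all tested genes) also moved, and with scaling alone the median over all tested genes moved with it. No member was higher with upper quartile scaling (median -0.30, against -0.19 over all tested genes) or library totals (-0.41, against -0.31). None was higher with DESeq2 (-0.21, against -0.04). With no filter 0 were higher and 3 lower, CH507-513H4.4, CH507-513H4.6 and KCNQ1OT1 (median -0.65, against -1.23 over all genes). Totals recovered from FPKM gave 0 higher and 31 lower (-1.75, against -1.65). Limma on log2(FPKM + 1) gave 0 higher and 35 lower (-0.85, against -1.05). Both settings that use FPKM thus move all genes down, and lower calls there are relative to that shift. A filter of 50 counts in 2 libraries kept 13 members (2 higher, median 0.20, against 0.005 over all tested genes). Same-numbered libraries were not shown to be pairs, and with a replicate block 1 member was higher. Leaving out 1 library gave medians from -0.56 (without SF3B6 IP 1, against -0.34 over all tested genes) to 0.52 (without input 1, against 0.04). Where 1 input was left out, 15 members were tested. Members of few input counts passed that filter mostly where IP counts were high, so those medians say nothing of stability. Membership from 30 input counts gave 5 higher among 68 tested of 96 (median 0.12). Genes of few input counts pass the filter mostly where IP counts are high, so this choice says nothing of stability. Membership from 100 gave a median of 0.027 over 20. Members chosen on input 1 and compared with input 2 had a median of 0.30 over 13 tested. Those chosen on input 2 and compared with input 1 had 0.50 over 16. With 1 input the filter again selects on IP counts, so these medians say nothing of stability either. Without the 4 CH507-513H4 genes, a choice made after seeing the data, 1 was higher. The IP share of gene counts over the input share was 0.820, and 0.920 over lncRNA and protein-coding genes alone. The cause of these differences was not tested.

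Among 26 members followed through the settings, some changed sign. With totals recovered from FPKM the values were CH507-513H4.3 -1.47, CH507-513H4.5 -0.70, CTD-2587H24.14 -0.30, LLNLF-96A1.1 -0.23, MIR23AHG -0.88, RP11-197N18.2 -0.30, RP11-47A8.5 -0.79, RP11-6N17.9 -0.80, TERC -1.53 and VIM-AS1 -1.57, of which CH507-513H4.3, TERC and VIM-AS1 were called lower, as were the other 16. With limma on log2(FPKM + 1) they were CH507-513H4.3 -1.46, CH507-513H4.5 -0.72, CTD-2587H24.14 -0.21, LLNLF-96A1.1 -0.20, MIR23AHG -0.57, RP11-197N18.2 -0.40, RP11-47A8.5 -0.68, RP11-6N17.9 -0.70, TERC -1.49 and VIM-AS1 -2.50. CH507-513H4.3, TERC and VIM-AS1 were at -0.01, -0.07 and -0.035 with upper quartile scaling, at -0.13, -0.18 and -0.16 with library totals, and at -0.38, -0.41 and -0.38 with no filter. VIM-AS1 was at -0.20 with DESeq2 and -0.069 with the replicate block, and NORAD at 0.032 with DESeq2 and 0.15 with the filter of 50 counts. Leaving out 1 library at a time turned the sign of 7 members, with values from -0.15 to 0.52 for CH507-513H4.3, -0.73 to 0.079 for CH507-513H4.4, -0.91 to 0.068 for CH507-513H4.6, -2.10 to 0.024 for MIRLET7BHG, -0.56 to 0.30 for NORAD, -0.17 to 0.042 for TERC and -8.95 to 0.60 for VIM-AS1. The value of -8.95 sets 0 counts in SF3B6 IP 2 against input and is no measured fold.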
